A study of Mus musculus with 16 samples.

Results

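Cldn5, Flt1, Pecam1, Kdr, Cdh5, Slc2a1, Mfsd2a, Slco1a4, Sox17 and Ly6c1, 10 genes that mark the endothelium of the blood-brain barrier (BBB), were followed through RNA-Seq libraries of CD11b+ brain cells. They are the rows with these gene names among 24421 rows of the count table, and all 10 passed the filter on low counts. The list was chosen by the measured levels of these same genes in these libraries, that is, with their differences between groups already known, so the fold changes and calls below describe the genes and are not independent evidence for them. CD11b is a surface integrin of microglia and other myeloid cells, so the bead enrichment selected for microglia, and which cells the transcripts of these genes came from was not tested.

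All mice were female C57BL/6J mice, newly weaned when the diets began and some weeks older when brains were taken. CON mice (4 libraries) received standard chow and MAL mice (5 libraries) an isocaloric diet low in protein and fat. MAL-BG mice (7 libraries) received the MAL diet and were given E. coli and Bacteroidales species by gavage, while the study's other mice received buffer by the same route. The labels call the tissue cortical, whereas the study's methods describe whole cerebra. Total counts were 10312703 to 13461574 in CON, 10864121 to 12819982 in MAL and 14191791 to 18705202 in MAL-BG, so the MAL-BG libraries were the deepest. Library numbers below are those of the table's columns, which carry no sample title.

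In the brain, endothelial cells are joined by tight junctions, take up few vesicles and carry nutrients through dedicated transporters. Claudin-5, encoded by Cldn5, is the main sealing claudin of these junctions, VE-cadherin (Cdh5) holds the adherens junctions, and PECAM-1 (Pecam1) is an adhesion molecule at endothelial contacts that leukocytes and platelets also carry. Flt1 and Kdr encode the receptors for vascular endothelial growth factor (VEGF). GLUT1 (Slc2a1) carries glucose, Mfsd2a carries lysophospholipids and restrains transcytosis, and Slco1a4 encodes an organic anion transporter. Sox17 is a transcription factor of arterial endothelium, and Ly6c1 encodes a surface protein of brain endothelium.

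In GRCm38.p6 with GENCODE exons, Cldn5 lay on the plus strand at chr16:18776847-18778262 and was the shortest member, with 1416 bases of exon. Flt1 was the longest at 13504 bases of exon (chr5:147561604-147726438, minus strand), and Kdr lay on the same chromosome at chr5:75932827-75979072. Slc2a1 was at chr4:119108745-119137330 and Slco1a4 at chr6:141805438-141856284. Of 42-base windows in Ly6c1 exons (chr15:75044018-75048920), 38.7% also occurred in other genes, most often in the monocyte gene Ly6c2, so its counts are uncertain. For Slco1a4 the share was 2.39%, for Pecam1 1.67% and for Flt1 0.126%, and no window of Cldn5, Kdr, Cdh5, Slc2a1, Mfsd2a or Sox17 was shared. Exons of Slc2a1 and Sox17 overlapped opposite-strand genes (Gm12868 over 105 bases and Gm37587 over 804 bases), and whether counting used strand is not given in the sources used here.

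RefSeq promoter windows matched 7 of the 10 genes (8 windows); Pecam1, Cdh5 and Sox17 had no entry. The 250 bases before the annotated start are shown, 5′ to 3′ on each gene's own strand, for Cldn5 and Ly6c1, which were higher in MAL-BG than in MAL libraries, and for Slc2a1 and Slco1a4, transporters that passed neither comparison. Capitals mark the core GGAA (or TTCC, the same site on the other strand) that ETS factors, common regulators of endothelial genes, can bind. The windows are chr16:18776597-18776846 (plus strand), chr15:75048838-75049087 (minus), chr4:119108495-119108744 (plus) and chr6:141856221-141856470 (minus) of GRCm38.p6.
Cldn5: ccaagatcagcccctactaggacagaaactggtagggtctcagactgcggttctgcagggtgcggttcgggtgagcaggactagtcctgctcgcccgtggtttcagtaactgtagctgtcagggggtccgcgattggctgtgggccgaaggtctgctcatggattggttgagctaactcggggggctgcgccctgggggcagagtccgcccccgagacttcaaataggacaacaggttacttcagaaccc
Ly6c1: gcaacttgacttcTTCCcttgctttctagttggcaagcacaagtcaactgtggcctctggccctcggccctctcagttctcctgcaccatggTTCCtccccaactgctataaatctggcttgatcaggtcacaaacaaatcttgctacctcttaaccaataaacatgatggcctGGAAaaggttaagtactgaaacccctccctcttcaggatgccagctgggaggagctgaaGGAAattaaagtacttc
Slc2a1: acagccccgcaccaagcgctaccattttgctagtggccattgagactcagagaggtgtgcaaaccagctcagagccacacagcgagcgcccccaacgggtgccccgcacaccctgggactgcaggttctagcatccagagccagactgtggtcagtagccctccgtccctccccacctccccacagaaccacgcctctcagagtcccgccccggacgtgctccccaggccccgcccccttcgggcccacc
Slco1a4: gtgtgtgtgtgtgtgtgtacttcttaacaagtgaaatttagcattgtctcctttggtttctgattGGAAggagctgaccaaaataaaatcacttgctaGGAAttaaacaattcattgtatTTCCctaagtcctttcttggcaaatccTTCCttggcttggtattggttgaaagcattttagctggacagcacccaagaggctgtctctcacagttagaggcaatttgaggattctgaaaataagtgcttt
The Cldn5 and Slc2a1 windows held no GGAA on either strand, while the Ly6c1 and Slco1a4 windows shown held 4 each, and 93.4% of 32851 promoter windows of the same length held at least 1. The SOX core ACAAT, searched on both strands, occurred 3 times in the Slco1a4 window and in no other of the 8 windows (27.7% of all promoters). The CCAAT box, searched on both strands, occurred 2 times each in the Cldn5 and Slco1a4 windows and 1 time each in the Mfsd2a window and the Ly6c1 window shown (33.8% of all promoters). There was 1 overlap between motifs, in Slco1a4. The TCF/LEF core CTTTG, on both strands, occurred 2 times for Mfsd2a, 1 time for Slco1a4 and 1 time in the other Ly6c1 window (48.6% of all promoters). GC content was 59.6% for Cldn5, 66.4% for Slc2a1 and 39.2% for Slco1a4, against a median of 52.4% over all promoters. In the 4 windows shown, Cldn5 and Slc2a1 lacked the ETS core, and Ly6c1 and Slco1a4 held it. These windows were chosen with the fold changes known, Pecam1 had none, and most promoters hold this core. A part of the promoters in the differences was thus not tested.

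The summed level of the 10 genes varied widely among libraries of the same group. Levels are CPM (counts divided by the library's scaled size) after TMM scaling, which sets library sizes on the assumption that most genes do not differ between libraries. The sum was 711, 1405, 1394 and 2335 CPM in CON libraries 1 to 4, and 1322, 1256, 1734, 601 and 1238 CPM in MAL libraries 1 to 5. In MAL-BG it ran from 1443 to 3894 CPM with a median of 1854. The 3 ranges overlapped. CON library 4 was the highest of its group for 10 of 10 genes and CON library 1 the lowest for 10 of 10. MAL library 3 was the highest and MAL library 4 the lowest for 10 of 10, and MAL-BG library 3 was the highest for 10 of 10. The lowest MAL-BG library varied: it was library 7 for 5 genes, library 6 for 3 and library 2 for 2. Away from these extremes the order differed between genes: in MAL-BG library 6, Cldn5 was lowest (286 CPM), while Slc2a1 stood at 373 CPM, above its group median of 335, and in library 2 Cldn5 stood at 753 CPM, above its median, and Slc2a1 at 268 CPM, below its own.

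**Figure D1:**
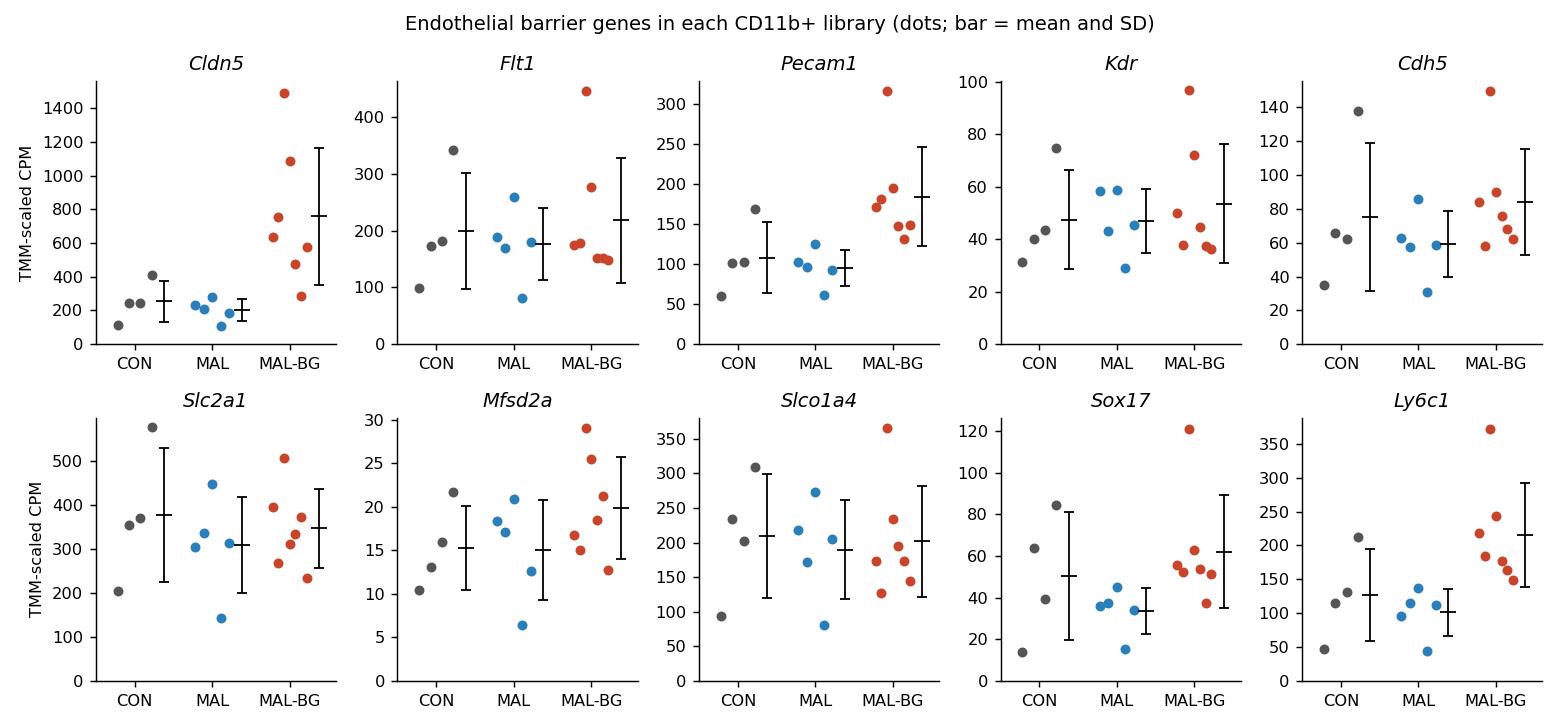
TMM-scaled CPM of each endothelial barrier gene (vertical axes, starting at 0) in each library of CON (4), MAL (5) and MAL-BG (7). Dots are libraries in column order, and bars are the group mean and SD. All 7 MAL-BG dots lie above all 5 MAL dots for Cldn5, Pecam1 and Ly6c1, while the groups overlap for Slc2a1 and Slco1a4, and in each panel MAL-BG library 3 is the top red dot.

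The summed level of 12 microglia markers was highest in CON library 1 (29700 CPM) and MAL library 4 (32192 CPM), the same libraries in which the barrier genes were lowest. MAL-BG libraries were mixed in this respect. Library 1 had the highest microglia sum (53691 CPM) and a barrier sum of 1977 CPM, and library 5 the lowest (39632 CPM) and a barrier sum of 1677 CPM. Library 3, with a microglia sum close to that of library 5 (39656 CPM), had the highest barrier sum (3894 CPM). Library 7 had a high microglia sum (52449.5 CPM) and a low barrier sum (1560 CPM), and library 6, with the lowest barrier sum (1443 CPM), a microglia sum of 46440 CPM. The microglia sum was 18348 to 29700 CPM in CON, 18952 to 32192 CPM in MAL and 39632 to 53691 CPM in MAL-BG, so that the MAL-BG range lay above both others; 7 of 12 markers passed the test as higher in MAL-BG than CON. Summed mural cell genes (15 genes of pericytes and smooth muscle) ranged over 334 to 1806, 474 to 1118 and 520 to 1791 CPM in CON, MAL and MAL-BG, and 0 of 15 were called higher and 2 lower against CON. All calls in this paragraph are against CON, where 11.4% of all genes were called higher and 21.7% lower. Astrocyte genes summed to 301 to 655 CPM in CON and 159 to 302 CPM in MAL-BG (0 of 9 called higher, 6 lower), neuron genes to 38.1 to 207 and 15.7 to 68.5 CPM (7 of 9 lower), and choroid plexus genes, led by Ttr, to 13746 to 53437 and 1755 to 16341 CPM (8 of 8 lower). Neutrophil genes, led by S100a9, summed to 50.6 to 197 CPM in CON and 178 to 12708 CPM in MAL-BG (7 of 7 higher). In MAL-BG library 5, with the highest neutrophil sum, the barrier genes summed to 1677 CPM, below the group median. Of monocyte genes, led by Fn1, 0 of 6 were called higher and 1 lower, of oligodendrocyte genes, led by Mbp, 3 of 8 higher, of fibroblast genes, led by Col1a2, 1 of 7 lower, and of platelet genes, led by Pf4, 1 of 6 higher. Of the erythroid genes 4 globins were listed at 0 in every library, and the remaining one, Alas2, was called higher. These markers moved with the groups compared below, and their part in the barrier genes' differences was not tested.

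**Figure D2:**
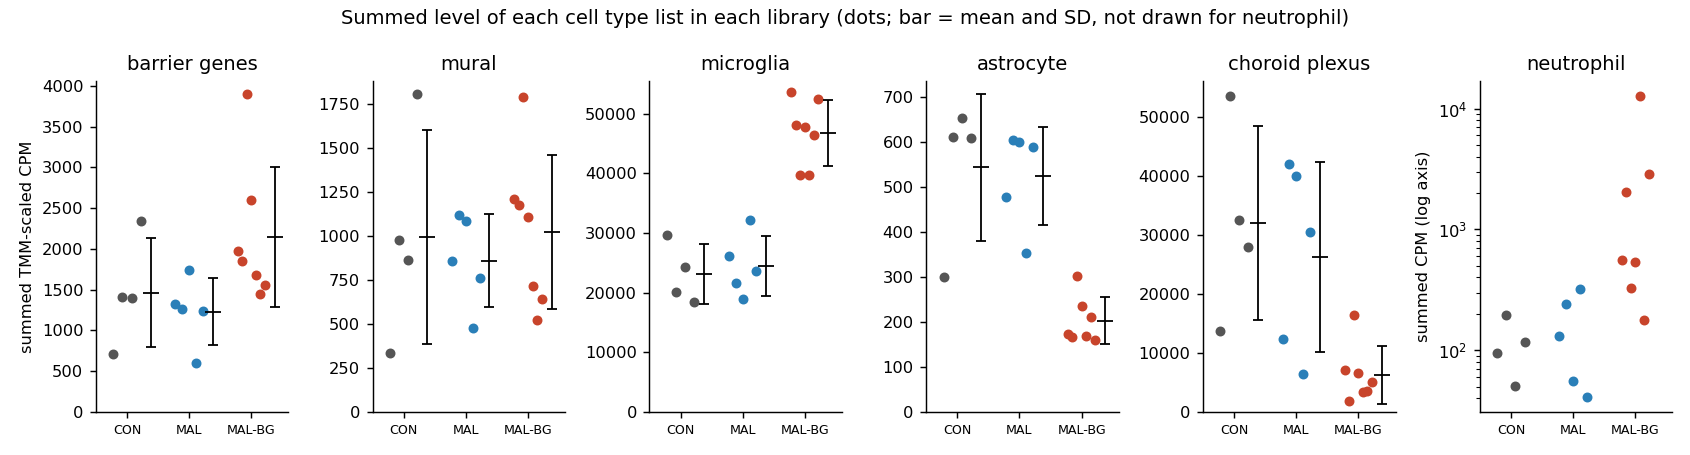
Summed TMM-scaled CPM of the 10 barrier genes and of marker lists for mural cells, microglia, astrocytes, choroid plexus and neutrophils in each library (linear axes from 0, log axis for neutrophils). Dots are libraries, and bars are mean and SD where drawn. The microglia sums of MAL-BG libraries (39632 to 53691 CPM) lie above all others, the choroid plexus and astrocyte sums are low in MAL-BG, and the mural sums overlap.

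Against CON, MAL-BG libraries held more Cldn5 and Pecam1, and no member was called lower. Under the threshold for differentially expressed genes (DEGs; adjusted p under 0.05 and absolute log2 fold change above 0.58 in the quasi-likelihood test of edgeR), 2 of 10 members were called, both higher, where 33.1% of all 14565 genes were called, 11.4% higher and 21.7% lower. The members' median log2 fold change was 0.24 and that of all genes -0.04, and the members' median was -0.02 without CON library 1, 0.00 without MAL-BG library 3 and 0.60 without CON library 4. Libraries of both groups overlapped for 10 of 10 members; 9.83% of all genes had every MAL-BG library above every CON library. By direction, 2 of 10 members called higher and none lower stand beside 11.4% and 21.7% of all genes. A list of 10 genes, chosen with their fold changes known, is too short to read these counts against those shares. In bulk libraries, fewer cells of a type and less RNA per cell cannot be told apart.

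Cldn5 showed the largest difference of the 10. It stood at 115, 243, 245 and 408 CPM in CON and at 234, 210, 280, 110 and 184 CPM in MAL. In MAL-BG it ranged from 286 to 1491 CPM with a median of 637. The lowest MAL-BG library (library 6) was under CON library 4, and otherwise the MAL-BG values lay above the CON and MAL values. Means were 253 ± 120 (SD, n = 4), 204 ± 63.2 (n = 5) and 758 ± 407 CPM (n = 7). The log2 fold change was 1.58 (SE 0.41) against CON, a 2.99-fold higher level, with adjusted p = 0.0052 by edgeR, and 1.90 (SE 0.38) against MAL, 3.72-fold, with adjusted p = 0.00099. All 7 MAL-BG libraries were above the CON median and above the highest MAL library. Without any single library, its log2 fold change against CON stayed between 1.31 and 1.89 and the call was kept in 16 of 16 fits.

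Pecam1, the adhesion molecule, was at 60.4, 101, 102 and 168 CPM in CON and at 102, 95.9, 124, 61.5 and 92.6 CPM in MAL. MAL-BG libraries ranged from 132 to 315 CPM with a median of 171, above each MAL library and above 3 of 4 CON libraries. Its log2 fold change was 0.77 (SE 0.27, adjusted p = 0.028 by edgeR) against CON and 0.95 (SE 0.25, adjusted p = 0.0059) against MAL. The call against CON was lost without CON library 1 (log2 fold change 0.55, adjusted p = 0.091), CON library 2 (0.72, 0.076), CON library 3 (0.72, 0.072) or MAL-BG library 3 (0.57, 0.052). The call against MAL was kept in 16 of 16 such fits. Leukocytes carry Pecam1 too, neutrophil genes were higher in MAL-BG, and their part in the Pecam1 difference was not tested.

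Ly6c1 was at 47.4, 115, 131 and 212 CPM in CON and at 96.4, 116, 137, 43.8 and 113 CPM in MAL. MAL-BG libraries ranged from 149 to 372 CPM with a median of 184. They lay above each MAL library and overlapped CON through CON library 4. The log2 fold change was 1.09 (SE 0.33, adjusted p = 0.013 by edgeR) against MAL, which passed, and 0.77 (SE 0.35, adjusted p = 0.085) against CON, which did not. Against CON it passed without CON library 4 (log2 fold change 1.12, adjusted p = 0.025) or MAL-BG library 7 (0.92, 0.047). Ly6c2, with which it shares windows, was at a mean of 20.5, 26.6 and 37.8 CPM in CON, MAL and MAL-BG and did not pass against CON (log2 fold change 0.88, adjusted p = 0.24).

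None of the 3 transporters passed either comparison. Slc2a1, for glucose, was at 205, 356, 370 and 577 CPM in CON and at 306, 337, 449, 142 and 314 CPM in MAL, and ranged from 235 to 507 CPM with a median of 335 in MAL-BG. Its MAL-BG range lay inside the CON range. The log2 fold change was -0.12 (SE 0.28, adjusted p = 0.75 by edgeR) against CON and 0.16 (SE 0.27, adjusted p = 0.64) against MAL. Slco1a4, for organic anions, ranged over 94.2 to 310 CPM in CON, 80.3 to 274 CPM in MAL and 127 to 366 CPM in MAL-BG. Its log2 fold changes were -0.05 (SE 0.33) and 0.09 (SE 0.31). Mfsd2a was the member with the fewest counts, at means of 15.3 ± 4.84, 15.1 ± 5.73 and 19.8 ± 5.86 CPM, with log2 fold changes of 0.37 (SE 0.29, adjusted p = 0.31) and 0.40 (SE 0.27, adjusted p = 0.25). These SEs leave room for changes of moderate size in either direction.

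The VEGF receptors, VE-cadherin and Sox17 did not pass either comparison. Flt1 was at 98.4, 173, 182 and 342 CPM in CON and 149 to 445 CPM in MAL-BG, with log2 fold changes of 0.13 (SE 0.36) against CON and 0.31 (SE 0.34) against MAL. Kdr ranged over 31.3 to 74.7, 29.1 to 58.7 and 36.1 to 96.8 CPM in CON, MAL and MAL-BG, and its fold changes were 0.17 (SE 0.29) and 0.19 (SE 0.27) on the log2 scale. Cdh5 stood at 35.1 to 138, 30.8 to 86.1 and 58.2 to 150 CPM, and at 0.16 (SE 0.33) and 0.51 (SE 0.31). Sox17 was at 13.8, 64.1, 39.2 and 84.5 CPM in CON and at 35.9, 37.4, 45, 15.4 and 34.1 CPM in MAL. In MAL-BG it ranged from 37.6 to 121 CPM with a median of 54.0, and all 7 libraries lay above the MAL median. Its log2 fold change against MAL was 0.89 (SE 0.37, adjusted p = 0.061 by edgeR), and it passed without CON library 1 (adjusted p = 0.021), MAL-BG library 6 (0.043) or MAL-BG library 7 (0.049).

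Against MAL, the comparison that asks about gavage on the same diet, 3 of 10 members were called, all higher (Cldn5, Pecam1 and Ly6c1). Of all genes 30.4% were called, 10.2% higher and 20.2% lower. The members' median log2 fold change was 0.45 against -0.03 over all genes. For the same 3 members every MAL-BG library was above every MAL library, which held for 7.86% of all genes, and the reverse order, which 0 of 10 members showed, for 8.95%. Both comparisons use the same MAL-BG libraries. Between MAL and CON, diet alone, 0 of 10 members were called (0% of all genes), with log2 fold changes from -0.59 (Sox17, SE 0.41) to -0.02 (Kdr and Mfsd2a) and a median of -0.23. At an unadjusted p under 0.05, edgeR gave 0 of 10 members and 212 of 14565 genes, and DESeq2, which also called 0 genes, gave 241. The groups overlapped for each member.

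Library sizes taken from other genes moved all genes together, members among them. With the totals of 12 microglia markers as library sizes, which moved the members' median log2 fold change against CON from 0.24 to -0.88 and that of all genes from -0.04 to -1.08, 0 members were called higher and 4 lower (Kdr -0.91, Cdh5 -0.96, Slc2a1 -1.23 and Slco1a4 -1.15), where 41 of 14565 genes were called higher and 11109 lower. Pecam1 then stood at -0.34 (adjusted p = 0.39) and Cldn5 at 0.47 (adjusted p = 0.36). Against MAL the same scaling, with a median of -0.98 over all genes, left Cldn5 at 0.90 (adjusted p = 0.071) and called Slc2a1 lower (-0.85), with the other members but Ly6c1 (0.08) below 0. With the totals of 15 other vascular genes as library sizes (Tek, Tie1, Ptprb, Adgrl4, Adgrf5, Robo4, Clec14a, Mmrn2, Emcn, Egfl7, Nos3, Vwf, Erg, Sox18 and Esam, a set chosen after the data were seen; medians over all genes -0.64 against CON and -0.79 against MAL), Cldn5 was the 1 member called, at 1.06 (adjusted p = 0.029) against CON and 1.06 (adjusted p = 0.015) against MAL. The 14 other settings also changed filters, depth, the test or the libraries used, and the setting without a fold change threshold kept the main fold changes. Cldn5 was positive under 14 of 14 of these settings in both comparisons. Pecam1 was positive under 13 of 14 in both, and Slc2a1 negative under 13 of 14 against CON.

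**Figure D3:**
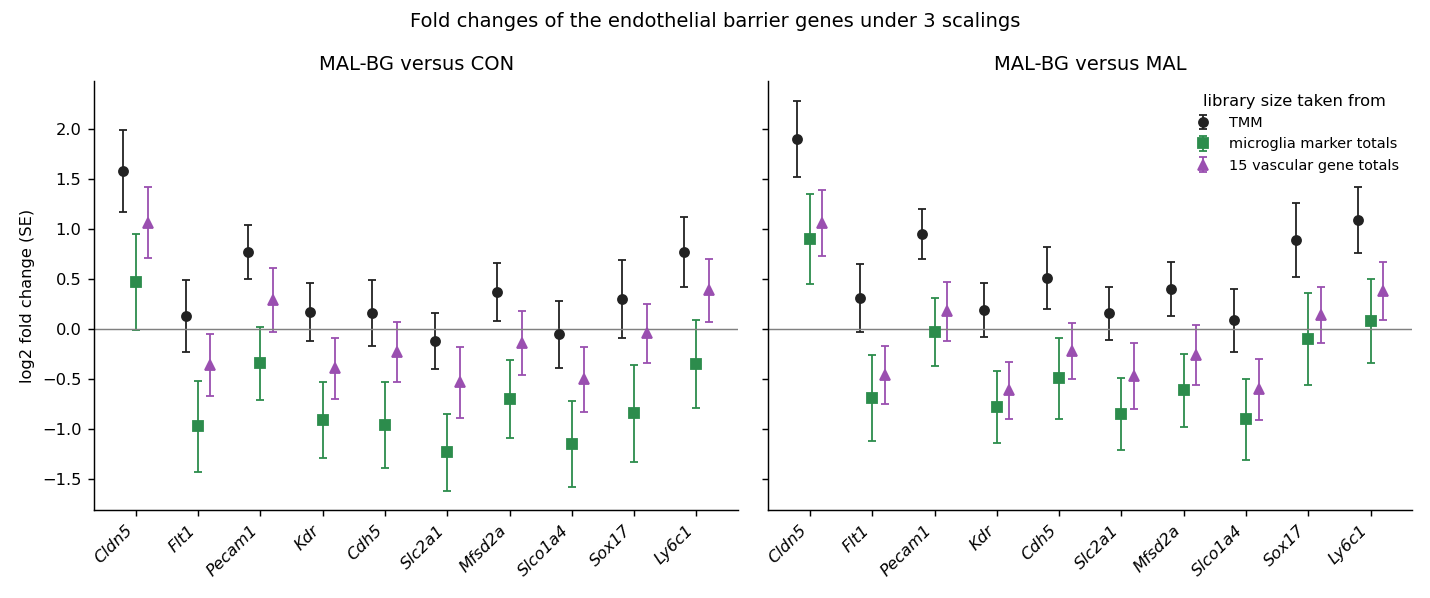
Log2 fold change with SE (vertical axis) of each barrier gene in MAL-BG against CON and against MAL, with library sizes from TMM, from 12 microglia markers or from 15 vascular genes. Cldn5 is above 0 under each of the 3 scalings in both panels (0.47 to 1.58 and 0.90 to 1.90), whereas Slc2a1 against CON moves from -0.12 to -1.23 and Pecam1 from 0.77 to -0.34.

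Ratios within a library do not depend on library size. Of 45 ratios between members, 15 (33.3%) had all MAL-BG libraries apart from all CON libraries; of all pairs of the 14565 genes 20.8% did. The 15 ratios were those of Cldn5, Pecam1 or Ly6c1 to Flt1, Kdr, Cdh5, Slc2a1 or Slco1a4, each higher in MAL-BG, while ratios among Cldn5, Pecam1 and Ly6c1 overlapped, and so did those with Mfsd2a or Sox17. The pairs share members and are not independent. Cldn5 counts per Flt1 count ran from 1.17 to 1.41 in CON, from 1.02 to 1.34 in MAL and from 1.89 to 4.23 in MAL-BG. Cldn5 counts per Slc2a1 count ran from 0.563 to 0.708, from 0.586 to 0.772 and from 0.767 to 3.49, and only MAL-BG library 6 came near the other groups. Against MAL, 14 ratios (31.1%) were apart, where 17% of all gene pairs were, and the members involved were others in part: Cldn5 and Ly6c1 were in 5 each, Kdr in 4, Flt1, Cdh5, Slco1a4 and Sox17 in 3 each, and Pecam1 and Slc2a1 in 1 each. Between MAL and CON it was 0 of 45 (0.802% of all gene pairs).

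Set against the 15 vascular genes of the same library, Cldn5 stood at 252, 216, 240 and 216 counts per 1000 of their counts in CON and at 245, 241, 216, 258 and 194 in MAL. In MAL-BG it ranged from 300.2 to 608 with a median of 492, above all other libraries. Although the absolute level differed 3.54-fold between CON libraries, the ratio thus varied little within CON and MAL. It was the 1 member apart from CON, where 15.9% of all genes were. Slc2a1 stood at 306 to 448 per 1000 in CON, 319 to 387 in MAL and 170 to 391 in MAL-BG, and Slco1a4 at 164 to 207, 188 to 228 and 97.8 to 182. Against MAL, Flt1, Kdr and Slco1a4 were apart on the low side and Cldn5 on the high side (21.1% of all genes). Pecam1 ranged over 89.2 to 132, 96.2 to 144 and 106 to 140, and Ly6c1 over 102 to 128, 101 to 133 and 125 to 172. The mean log2 differences against CON were 1.03 for Cldn5, 0.38 for Ly6c1, 0.30 for Pecam1, -0.52 for Slco1a4 and -0.58 for Slc2a1.

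With the wider reference of 95 other endothelial genes, which also holds genes abundant in microglia such as Slco2b1, F11r and Klf2, Cldn5 differed by 1.16 on the log2 scale from CON. No member was then apart from CON (20.6% of all genes were), and Cldn5, Pecam1 and Ly6c1 were apart from MAL (23.7%). The Cldn5 ratio to this reference was 12.3, 20.7, 21.8 and 27.98 per 1000 in the CON libraries and 22.6 to 71.8 in MAL-BG.

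**Figure D4:**
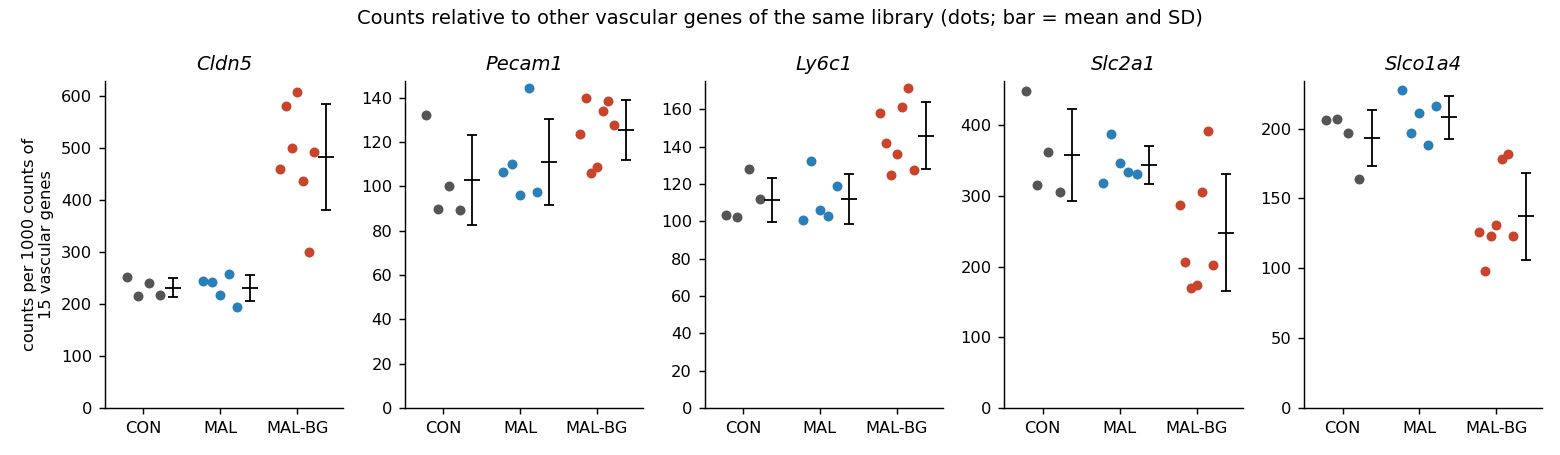
Counts of Cldn5, Pecam1, Ly6c1, Slc2a1 and Slco1a4 per 1000 counts of 15 vascular genes in the same library (vertical axes from 0). Dots are libraries, and bars are mean and SD. Cldn5 lies at 194 to 258 in the CON and MAL libraries and at 300.2 to 608 in MAL-BG, and most MAL-BG libraries lie low for Slc2a1 and Slco1a4.

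Per kilobase of merged exon (RPKM from TMM-scaled CPM), Cldn5 was the most abundant member in each group, at 179, 144 and 535 RPKM in CON, MAL and MAL-BG. Slc2a1 followed in CON (107 RPKM), then Ly6c1 (75.4) and Slco1a4 (32.7). Cdh5, Pecam1 and Flt1 were close together at 17.9, 17.4 and 14.7 RPKM, and Cdh5 exceeded Pecam1 in 1 of 4 CON libraries. Sox17, Mfsd2a and Kdr were the lowest at 10.6, 6.80 and 5.26 RPKM. Library ranges of neighbours in this order overlapped throughout CON and MAL. In MAL-BG, Ly6c1 (128 RPKM) came before Slc2a1 (98.9 RPKM), in 6 of 7 libraries. With the longest RefSeq transcript as length, Ly6c1 came before Slc2a1 in CON as well (149.8 against 116 RPKM), since its merged exons hold 1677 bases and its longest transcript 844.

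Gene length moved with the fold changes over all genes. The median log2 fold change against CON was 0.13 among the shortest genes (up to 2767 bases of exon) and -0.25 among the longest (from 6801 bases). Cldn5, Mfsd2a and Ly6c1 belong to the first of these groups, Flt1 and Kdr to the last. With offsets for length and GC content and TMM kept (added after the data were seen), the log2 fold changes against CON were 1.48 for Cldn5 (adjusted p = 0.0047), 0.86 for Pecam1 (0.016), 0.51 for Ly6c1 (0.25), 0.47 for Flt1 (0.28) and -0.21 for Slc2a1 (0.58). The Ly6c1 call against MAL was lost under these offsets (0.80, adjusted p = 0.059).

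Other endothelial genes were read from 6 lists by role, chosen with earlier results known. Of 95 genes tested, 19 were called higher and 7 lower against CON (median 0.39 on the log2 scale), and 34 higher and 4 lower against MAL (median 0.54). Of all genes, 11.4% were higher and 21.7% lower against CON, and 10.2% and 20.2% against MAL. With microglia totals as library sizes the counts of the 95 became 0 higher and 42 lower against CON and 0 and 28 against MAL. Under that scaling 11109 and 10519 of 14565 genes were called lower. With 15 vascular gene totals 1 of the 95 was higher in each comparison, and of all genes 33 against CON and 41 against MAL. Against MAL the number of the 95 called higher was 20 without MAL-BG library 3 and 21 without MAL library 4 or MAL library 5. The number lower was 7 without MAL-BG library 3 or MAL library 4. Against CON the number lower was 3 without CON library 4. Values of the genes named next are log2 fold changes against CON under TMM unless MAL is named. Some of the genes whose sign turned under another scaling are listed with the dependence on processing.

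Among 12 other junction genes, 2 were higher and 2 lower, with a median of 0.10. Counts of this and the following lists stand beside the shares over all genes. Against CON these were 33.1% called, 11.4% higher and 21.7% lower, and against MAL 30.4%, 10.2% and 20.2%. F11r, a junctional adhesion molecule also found on leukocytes, was the most abundant and rose by 1.26 (427 to 1024 CPM in group means), and Esam rose by 1.02. Cgn, which encodes cingulin, fell by 2.76 from a mean of 10.2 CPM to one about 0.148 times as high, and Cldn12 fell by 0.69. Ctnnb1, beta-catenin, did not pass (0.14). Ocln and Tjp1, the other textbook tight junction genes, were at -0.15 (adjusted p = 0.73 by edgeR) and -0.42 (adjusted p = 0.054). Of the junction genes, F11r came nearest to Cldn5 in size.

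Of 18 other transporters, 4 were higher and 2 lower (median 0.28). Slc7a5, the large neutral amino acid transporter, rose by 0.92 (97.0 to 184 CPM), Slc16a1, for lactate and ketone bodies, by 1.33, Slc38a5 by 1.41 and the efflux pump gene Abcg2 by 0.89. Slc38a3 fell by 1.58 and Slco1c1, for thyroid hormone, fell by 0.89. Bsg and Slco2b1, the most abundant, did not pass (0.25 and 0.41), and Abcb1a, the P-glycoprotein gene, stood at -0.03. Against MAL 5 of 18 were higher and 1 lower.

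The caveola and transcytosis list had 1 of 7 genes called, Plvap, which forms diaphragms of fenestrae and is scarce in mature barrier endothelium, at 2.46 CPM in CON and 4.84 CPM in MAL-BG (0.97, adjusted p = 0.022 by edgeR). Its call was lost without CON library 1 or CON library 4. Ehd4 and Ptrf, the most abundant, were at 0.37 and 0.90 and did not pass, and Ptrf, a caveolar coat gene, passed against MAL (1.26) and, without CON library 4, against CON (1.34, adjusted p = 0.023). Against MAL 3 of 7 were higher (Cav1, Ptrf and Plvap), and Plvap, at an adjusted p of 0.047, lost that call without CON library 2 or 4, MAL library 1, 3, 4 or 5, or MAL-BG library 1, 3 or 5. Mfsd2a, which opposes transcytosis, did not pass in either comparison.

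Of 19 receptors, 4 were higher and 1 lower against CON (median 0.33) and 8 higher and 1 lower against MAL (median 0.53). Nrp1, the co-receptor for VEGF that microglia also express, rose by 1.09 (182 to 389.6 CPM), Ramp2 by 1.01, Calcrl by 0.70 and Bmpr2 by 0.62. Ednrb, an endothelin receptor, fell by 1.33. Ptprb, the abundant endothelial phosphatase, did not pass (-0.11). Of 21 surface and matrix genes, 6 were higher and 2 lower (median 0.49), and 11 were higher and 1 lower against MAL. Cd34 rose by 1.17 (175 to 396 CPM), Pglyrp1, also a neutrophil gene, by 1.82, Egfl7 by 1.09 and Ly6a, a neighbour of Ly6c1 in the same family, by 1.07, while Cyyr1 fell by 1.62 and Thbd by 0.95. Podxl did not pass against CON (0.72) and passed against MAL (1.23); without CON library 4 it passed against CON as well (1.16, adjusted p = 0.040 by edgeR).

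Of 18 transcription factors, 2 were higher against CON (median 0.38), Sox18 by 1.14 and Foxo1 by 0.79, and 4 were higher against MAL. Sox18 belongs to the same SOX subgroup as Sox17, which did not pass. Klf2 and Epas1, the most abundant, were at 0.56 and 0.32 and did not pass, nor did Erg (-0.08). In the Wnt pathway that maintains the barrier, 0 of 13 genes were called higher and 3 lower, where 21.7% of all genes were called lower. Fzd4, the Norrin receptor, fell by 1.88 from 31.7 to 8.55 CPM, Wnt7b by 1.53 and Adgra2, a Wnt7 co-receptor, by 0.65. Neuron, astrocyte and choroid plexus markers fell as well (medians -2.28, -2.14 and -2.55), and the part of such cells in these falls was not tested. Lrp5 was at 0.03 and Lrp6 at -0.31 (adjusted p = 0.023), under the fold threshold. Of 7 VEGF and angiopoietin ligands 1 was called: Vegfa, made by astrocytes and epithelium among others, fell by 2.26 (45.8 to 9.55 CPM). Vegfb was at -0.52. The receptors of these ligands among the members, Flt1 and Kdr, did not pass.

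Of 8 arterial genes, 0 were called against CON (median 0.85) and 5 were higher against MAL (median 1.44), among them Mgp at 1.89 and Gkn3 at 2.27; the difference between the comparisons was not tested. Against MAL the smooth muscle genes Acta2 (1.27, adjusted p = 0.018 by edgeR) and Tagln (1.48, adjusted p = 0.011) were also higher, among 2 higher and 4 lower of 15 mural genes, and their part in the arterial values was not tested. Of 8 venous and activated-endothelium genes tested, 1 was higher (Slc38a5) and 1 lower: Icam1, which microglia also express, fell by 2.09 against CON and by 1.76 against MAL.

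**Figure D5:**
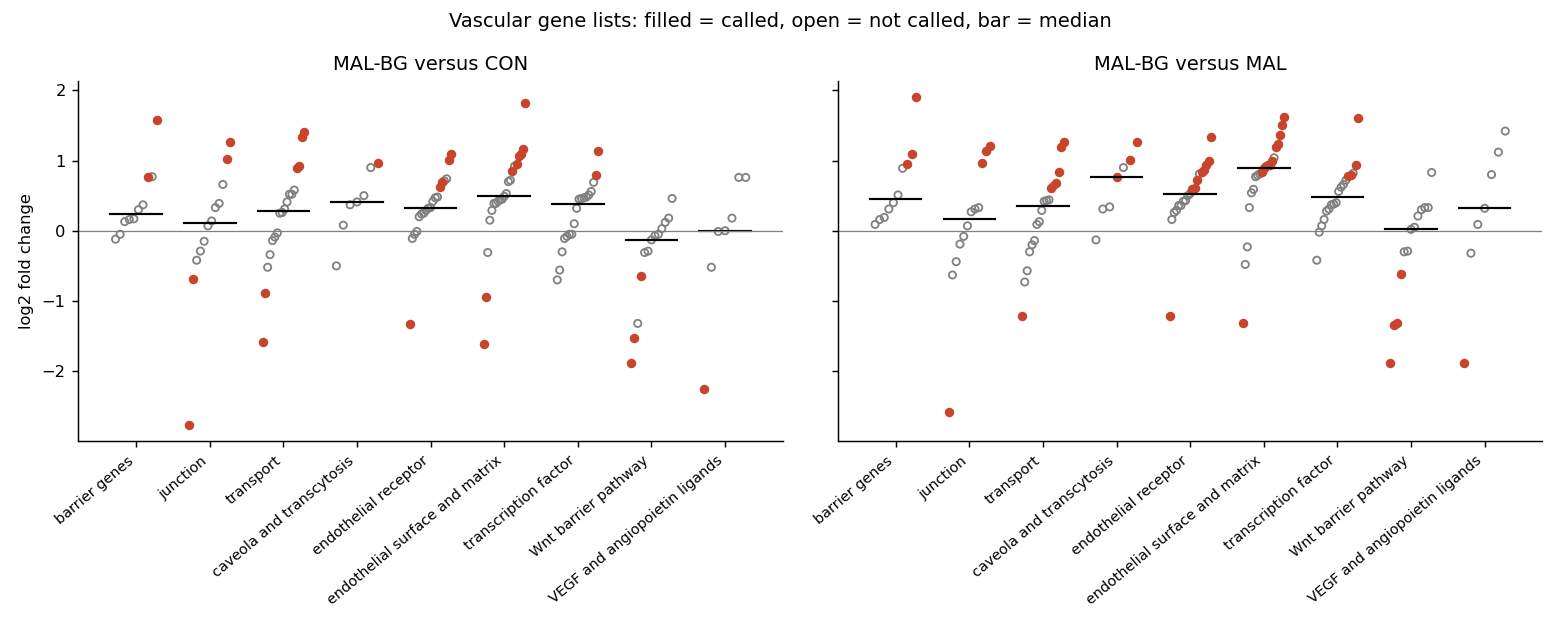
Log2 fold changes under TMM (vertical axis) of the 10 barrier genes and of 8 lists of vascular genes in MAL-BG against CON and against MAL. Filled dots are genes called, open dots genes not called, and bars are list medians. Cldn5 is the top dot of its column, the surface and matrix list has the highest median in both panels (0.49 and 0.90), and no gene of the Wnt or VEGF lists is called higher.

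The genes whose library-to-library pattern was most like the members are given next. Over 16 libraries, after subtracting group means, log2 CPM of Adgrl4 had a Pearson r of 0.991 with the mean standardised level of the 10 members, followed by Tek (0.985), 9430020K01Rik, Mpzl1 and Adgra3 (0.984 each); the median over all genes was -0.05. Each member against the mean of the other 9 had an r from 0.863 (Cldn5) to 0.979 (Flt1), so Cldn5 followed the rest least closely, near Mfsd2a (0.864). The points share library and depth, and the values are a description. Group differences of the 5 genes were uneven as well: against CON they stood at a log2 fold change of 0.71 for Adgrl4, 0.42 for Tek, 0.69 for Mpzl1, 0.01 for 9430020K01Rik and -0.05 for Adgra3, and none passed. Against MAL, Adgrl4 (0.84, adjusted p = 0.049 by edgeR) and Mpzl1 (0.92, adjusted p = 0.030) passed, and Tek (0.81), 9430020K01Rik (0.27) and Adgra3 (0.16) did not.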

How the data were processed

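CD11b+ cells were enriched with magnetic beads after enzymatic dissociation of brain, and stranded poly(A) libraries were sequenced as paired 42-base reads. The authors aligned reads with STAR to GRCm38.p6 and counted them per gene with HTSeq; the deposited table holds raw counts. Its strand option and annotation are not given in the sources used here. The study fitted batch and condition, but no source used here ties a library to a batch, so batch was not modelled.

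Rows above 10 counts in no fewer than 4 libraries were kept (14565 genes). edgeR 4.0.16 in R 4.3.3 (quasi-likelihood F-test) was used with TMM scaling, the 3 groups in 1 fit and Benjamini-Hochberg adjustment within each comparison. P-values weigh the difference between groups against the spread between libraries. The closest replicates differed by 9.98 times the chi-square expected from counting. The script was tested on simulated data. Members and gene lists were chosen with earlier results of these data known. The genes named are the members, the pair with the largest mean CPM in each role list and its called gene with the smallest adjusted p against CON, and the 5 genes most alike; other genes were named after their values were seen. Sequences are from RefSeq (GRCm38.p6). Alternatives were 14 other settings, DESeq2 1.42.0 among them, and leaving out each of 16 libraries.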

Additional observations from a re-analysis of the deposited data

Results flagged for a closer look

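Pecam1, Cdh5, Sox17 and Ly6c1 were each flagged in MAL-BG library 3, whose value stood farther from the rest of its group than Dixon's 95% limit allows. Pecam1 was at 315.5 CPM there against 194 CPM in the next library. Cdh5 was at 149.6 against 90.0 CPM, Sox17 at 121 against 62.8 CPM, and Ly6c1 at 372 against 244 CPM. These were 4 of 30 groups of values checked, where chance flags about 1 in 20, and the 4 flags come from 1 library and from genes that vary together. The same library was the highest of its group for 10 of 10 members. Without it the log2 fold changes against CON were 1.31 for Cldn5, which kept its call, and 0.57 for Pecam1 (adjusted p = 0.052 by edgeR), which did not.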

How the results depend on the processing

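No paired analysis was possible because the library numbers are those of the table's columns, which match no sample title and tie no libraries of different groups together. Scaling mattered most. Against CON, where 2 members were called, 1 was called with library totals, with vascular gene totals or with MAL-BG libraries 3 and 5 left out together (a pair chosen after seeing the data), and 4, all lower, with microglia marker totals. Other endothelial genes called higher went from 19 to 41 with length and GC offsets and mean log2 CPM scaling, 11 with library totals, 0 with microglia totals and 1 with vascular totals, and those called lower from 7 to 42 with microglia totals. The whole table moved alongside. Of 14565 genes, 1659 were called higher under TMM and 3286 with these offsets and mean log2 CPM scaling. Library, microglia and vascular totals gave 1047, 41 and 33. The offsets and mean log2 CPM scaling put the all-gene median at 0.21, against -0.04 under TMM. With microglia totals 11150 genes, 11109 of them lower, were called against CON, and the medians were -0.88 for members and -0.70 for other endothelial genes, which vascular totals put at -0.18.

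Against MAL, where 3 members were called, 6 were called with the offsets and mean log2 CPM scaling, 1 (lower) with microglia totals and 1 with vascular totals. Other endothelial genes called higher went from 34 to 57, 17, 0 and 1 with the offsets, library, microglia and vascular totals and to 21 without MAL-BG libraries 3 and 5. Those called lower went from 4 to 8 without these libraries, 28 with microglia totals and 15 with vascular totals. The whole table moved with these scalings as well. Of 14565 genes, 1479 were called higher under TMM and 3013 with the offsets and mean log2 CPM scaling. Library, microglia and vascular totals gave 872, 40 and 41. Without MAL-BG libraries 3 and 5 it was 1538 of 14461. The offsets and mean log2 CPM scaling put the all-gene median at 0.20, against -0.03 under TMM. With microglia totals 10559 genes were called and the medians were -0.55 (members) and -0.46 (others); with vascular totals they were -0.24 and -0.22. Relative to the vascular genes 1 member was apart from CON, and 0 relative to other endothelial genes.

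Signs that turned with microglia totals included, against CON, Pecam1 -0.34, Kdr -0.91, Cdh5 -0.96, Ctnnb1 -0.94, Bsg -0.83, Slco2b1 -0.59, Slc7a5 -0.13, Ehd4 -0.69, Plvap -0.07, Foxo1 -0.26 and Lrp5 -1.01. Against MAL they included Pecam1 -0.03, Slc2a1 -0.85, Ctnnb1 -0.72, Slco2b1 -0.65, Slc7a5 -0.31, Ehd4 -0.59, Plvap -0.22, Klf2 -0.62, Foxo1 -0.16 and Lrp5 -0.95, and with vascular totals Slc7a5 -0.05, Plvap -0.02, Nrp1 -0.05 and Foxo1 -0.05. These lists are not complete. Further members above 0 under TMM fell below 0 under some of the 14 other settings. Their lowest values against CON were Flt1 -0.97, Mfsd2a -0.70, Sox17 -0.84 and Ly6c1 -0.35. Against MAL they were Flt1 -0.69, Kdr -0.78, Cdh5 -0.49, Mfsd2a -0.61, Slco1a4 -0.90 and Sox17 -0.10. The cause was not tested.

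Leaving out each library gave 1 to 3 members called against CON and 3 to 4 against MAL, 13 to 26 and 20 to 41 other endothelial genes higher, and 3 to 8 and 3 to 7 lower. Over all genes 4048 to 5418 were then called against CON and 3809 to 4877 against MAL. The members' median ran from -0.02 to 0.60 against CON and from 0.26 to 0.60 against MAL. The study's batch could not be modelled.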
